A study of Homo sapiens with 5 samples.

Results

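The interferon-stimulated genes described here are 53 named genes that act in, or are switched on by, the type I interferon pathway. They were chosen by name, and their symbols were matched to the RefSeq entries of the deposited expression table. Of the 53 genes, 50 had an entry of their own among 20220 usable entries, and 45 of those averaged at least 0.5 FPKM across the 3 groups. FPKM is the number of sequenced fragments scaled to transcript length and to sequencing depth. RNA was sequenced from HEK 293T, an established line of human embryonic kidney origin that expresses the large T antigen of SV40, and every library came from this line. The treated group was 2 libraries from cells given 1 µM 5-aza-CdR (5-aza-2'-deoxycytidine, a cytidine analogue that traps DNA methyltransferases in DNA) for 3 days. The recovery group was 1 library from cells that had this treatment and were then kept for 30 days without the drug. The control group was 2 libraries from cells grown with no drug.

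Type I interferons bind a receptor made of IFNAR1 and IFNAR2, which carries the kinases TYK2 and JAK1. These kinases activate STAT factors, among them STAT2, which joins IRF9 in a complex that binds the interferon-stimulated response element in the promoters of target genes. The targets include RNA-binding proteins, membrane proteins that block virus entry or release, enzymes that act on viral RNA or nucleotides, and the ubiquitin-like modifier ISG15. Loss of DNA methylation is known to switch on these genes in some cancer cell lines, often alongside transcripts of endogenous retroviruses.

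The response element is shown first because it is the DNA sequence known to mark promoters of interferon targets. The list was chosen by gene name and not by sequence. Many of its genes are known interferon targets, so the share with the element is not independent of that choice. Its core was searched as GAAA, any 2 bases and GAAA again, on both strands, overlapping matches included, in RefSeq promoter windows of 300 bases (250 before to 50 after a gene's start, GRCh38.p14). Windows were found for 42 of the 53 genes, and 25 of these (59.5%) held the letters in at least 1 window, against 1195 of 27305 genes in the whole promoter table (4.38%). Counted by window, the letters were in 30 of 61 windows of the list (49.2%), against 1255 of 35116 windows in all (3.57%). A match describes the letters of a window and does not show that a factor binds there. Below are the matches of 10 genes, each read in the direction of the core with 4 bases on each side, with the core in capitals. Where a window held several, the longest run was taken, and among equals the first.
ISG15: tcggGAAAGGGAAACCGAAActga
IFI27: ccagGAAACCGAAActgc
IFIT3: ggagGAAAATGAAAccta
IFIT1: agggGAAAGTGAAActaa
OAS3: aaacGAAACTGAAAgcag
IFI6: agggGAAAATGAAActct
BST2: ctggGAAACTGAAACTGAAAacct
MX1: aaatGAAACCGAAActga
PARP12: aaacGAAACCGAAAgcgg
IFITM3: ccagGAAAAGGAAActgt
ISG15 and BST2 each held 2 overlapping cores that make a run of 16 bases, ending 97 and 114 bases before the start of the gene. The sites lie on GRCh38.p14 at chr1:1013380-1013403 (plus strand) for ISG15, chr14:94110624-94110641 (minus) for IFI27, chr10:89327837-89327854 (minus) for IFIT3 and chr10:89392503-89392520 (minus) for IFIT1. The OAS3 site is at chr12:112938327-112938344 (plus), the IFI6 site at chr1:27672335-27672352 (minus) and the BST2 site at chr19:17405741-17405764 (minus). The last 3 are at chr21:41420565-41420582 (plus) for MX1, chr7:140062948-140062965 (plus) for PARP12 and chr11:320899-320916 (minus) for IFITM3.

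The whole windows of 3 genes show how the sequence around the core differed. ISG15 (chr1:1013247-1013546, plus strand) and BST2 (chr19:17405581-17405880, minus strand) hold the core, in capitals. STAT2 (chr12:56360058-56360357, minus strand), a factor of the pathway whose level was nearly the same in the 3 groups, holds none. These 3 windows are examples and do not show that the core goes with a raised level. HERC5 and IFIT5 also hold the core and were not higher than control in treated or recovery cells. ISG20 and IFI44L hold it too and were lower than control in both.
ISG15: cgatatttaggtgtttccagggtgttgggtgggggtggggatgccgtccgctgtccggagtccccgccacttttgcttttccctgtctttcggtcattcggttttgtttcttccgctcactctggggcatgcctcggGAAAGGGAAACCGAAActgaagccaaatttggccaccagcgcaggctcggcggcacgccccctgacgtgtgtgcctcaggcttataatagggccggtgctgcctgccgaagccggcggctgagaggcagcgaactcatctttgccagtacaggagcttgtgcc
BST2: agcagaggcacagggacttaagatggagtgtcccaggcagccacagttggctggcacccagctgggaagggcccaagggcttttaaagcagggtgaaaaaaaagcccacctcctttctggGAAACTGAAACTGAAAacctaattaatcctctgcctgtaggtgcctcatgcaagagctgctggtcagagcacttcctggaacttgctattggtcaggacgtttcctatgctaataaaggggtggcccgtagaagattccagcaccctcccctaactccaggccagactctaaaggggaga
STAT2: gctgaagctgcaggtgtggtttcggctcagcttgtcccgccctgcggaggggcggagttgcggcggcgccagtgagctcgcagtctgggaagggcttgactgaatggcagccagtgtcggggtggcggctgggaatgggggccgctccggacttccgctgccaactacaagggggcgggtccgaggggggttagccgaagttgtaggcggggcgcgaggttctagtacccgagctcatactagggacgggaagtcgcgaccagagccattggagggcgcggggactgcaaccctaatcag
The ISG15 window held 20 CpG dinucleotides, the BST2 window 2 and the STAT2 window 25. CpG is the dinucleotide that DNA methyltransferases modify. The median window in the whole table held 14 CpG, and the median window of the list held 13.

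The deposited table gives 1 FPKM value per gene and group, with the libraries of a group already combined. No spread between libraries can therefore be given beside any value, and a difference between groups has no replicate check here. The authors' q-values against control are the only test per gene. Total fragments are not given, but the ratios of some low values are those of small whole numbers. By these ratios, 1 fragment was worth 0.757 times as many FPKM in treated and 1.53 times as many in recovery as in control. For each control fragment, the treated values therefore rested on 1.32 fragments and the recovery values on 0.652. Because RNA came from whole cultures, a higher level can reflect more RNA in every cell or more cells that express the gene, and these cannot be told apart.

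No gene of the list passed the authors' test. In the authors' deposited table, 0 of 37 listed genes with a q-value under 1 were called higher and 0 lower in treated against control cells at q under 0.05, and the lowest q was 0.328, for OAS3. The authors called 1.08% of all entries with q under 1 higher and 0.275% lower in that comparison. In recovery against control, 0 of 42 were called higher and 0 lower, with a lowest q of 0.264, again for OAS3, while 0.895% of all such entries were called higher and 0.447% lower. The submitters' processing notes name Cuffdiff, a tool that compares groups, and the columns used hold q-values without unadjusted p-values. The values below therefore describe group levels and are not tested differences.

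As a description of size, genes were counted as higher or lower when their log2(FPKM + 1) differed from control by at least 1, which is 2-fold on that scale. In treated cells 9 of the 45 genes (20.0%) were higher and 4 (8.89%) were lower. Over all 12712 genes that averaged at least 0.5 FPKM, 12.7% were higher and 7.50% were lower. In recovery 13 of the 45 (28.9%) were higher and 4 (8.89%) were lower, against 11.6% and 6.31% of all genes. The median log2 difference of the 45 was -0.04 in treated cells and 0.28 in recovery, and that of all genes was 0.01 and 0.00. Filtering on the mean favours genes that are high in at least 1 group. Over all 50 listed genes with an entry the medians were 0.02 in treated cells and 0.25 in recovery.

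**Figure D1:**
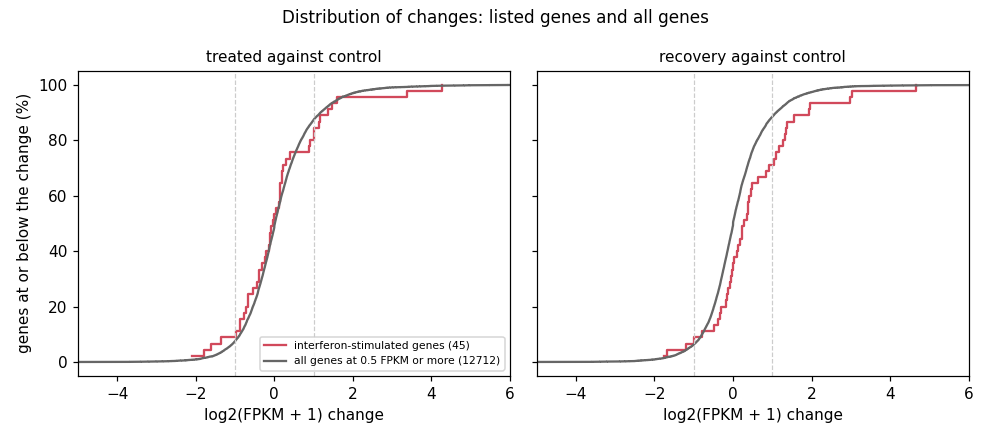
Cumulative share of genes (y axis, %) at or below each difference in log2(FPKM + 1) (x axis), treated minus control on the left and recovery minus control on the right, for the 45 interferon-stimulated genes and for all 12712 genes. Dashed lines mark a 2-fold difference; on the right 28.9% of the listed genes lie at or above the upper line, against 11.6% of all genes.

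The 45 genes fell into several patterns across the groups, and both comparisons use the same control values. ISG15, IFIT3, OAS3, MX2, PARP12 and IFI27 (6 genes) were at least 2-fold higher than control in both. On the log2(FPKM + 1) scale, IFIT1, IFIT2, BST2, RSAD2, IFI6, IFI44 and EPSTI1 (7 genes) reached that size in recovery and not in treated cells. IFNAR2, IRF7 and UBE2L6 (3 genes) reached it in treated cells and not in recovery. USP18, ISG20 and IFI44L (3 genes) were at least 2-fold lower in both, IFI35 was lower in treated cells and IFITM2 in recovery. The other 24 genes lay within 2-fold on the log2(FPKM + 1) scale in both comparisons, with control levels between 0.752 and 102 FPKM. Their plain ratios to control ran from 0.306 (MX1, treated) to 3.07 (IRF9, recovery). Of the 7 genes past 2-fold in recovery only, EPSTI1 (4.16 times control), IFI44 (2.27) and RSAD2 (2.02) were past 2-fold in treated cells by plain ratio. Set against treated cells directly, recovery cells had 12 of the 45 genes (26.7%) at least 2-fold higher and 2 (4.44%) lower. Of all genes, 5.67% and 6.27% were so. IFIT1, IFIT2, IFIT3, BST2, RSAD2, IFI6 and IFI44 among the 12 were also at least 2-fold higher than control in recovery. The rest, IRF9, MX1, TRIM22, SP100 and IFI35, lay below control in treated cells and within 2-fold of control in recovery on the log2(FPKM + 1) scale. The authors' deposited table holds no test of recovery against treated cells.

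**Figure D2:**
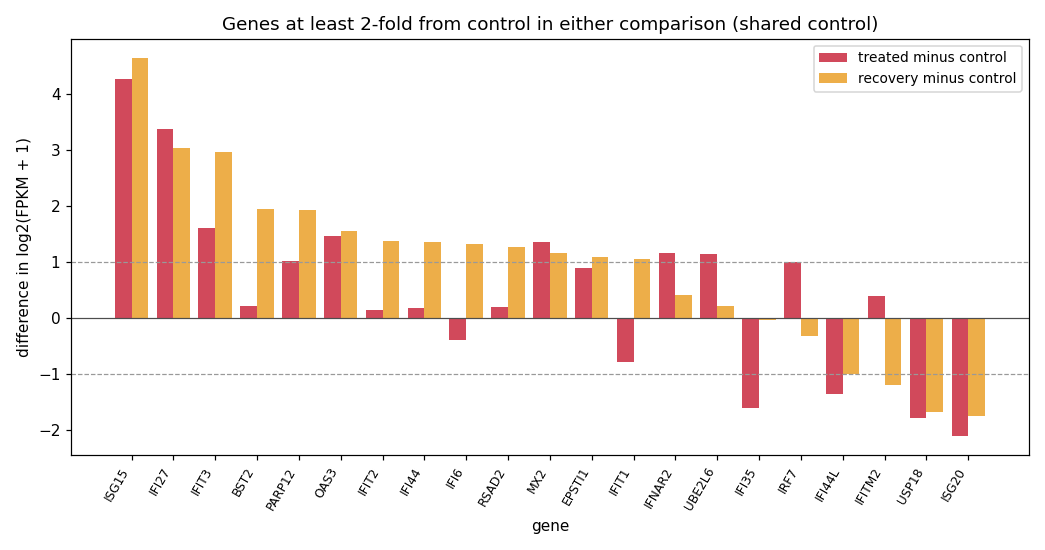
Difference in log2(FPKM + 1) from control (y axis) for the genes at least 2-fold from control in either comparison, ordered by the recovery value, with 1 bar for treated and 1 for recovery. ISG15 stands at 4.27 and 4.65 and ISG20 at -2.11 and -1.75; the bars carry no error because each group has 1 deposited value.

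On the log2(FPKM + 1) scale ISG15 stood farther above control than any other listed gene in both comparisons, while by plain ratio IFIT3 stood higher in recovery, at 94.2 times control. ISG15 is a small ubiquitin-like protein that is secreted and is also attached to other proteins. The ISG15 entry (chromosome 1, 948847 to 949919, hg19) was at 25.9 FPKM in treated and 34.2 FPKM in recovery cells, against 0.398 FPKM in control cells. Both groups were far above control, at 65.1 times its level in treated cells and 85.8 times in recovery. Of all 12712 genes, 49 in treated cells and 34 in recovery, ISG15 included, had a log2(FPKM + 1) difference at least as high. Searched for whole fragments, these values gave smallest numbers of 86 in treated, 56 in recovery and 1 in control. How the libraries of the treated and control groups were combined into 1 value is not known, so these numbers, and the intervals made from them here and below, hold only if the values scale as 1 pooled count per group. With 1 control fragment the ratio is imprecise: its exact 95% interval was 11.4 to 2600 times in treated cells and 14.8 to 3451 times in recovery, for counting error only. The q-value was 0.939 in both comparisons.

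The enzymes around ISG15 did not share its pattern. USP18, the protease that removes ISG15 and also dampens signalling at IFNAR2, was lower than control, at 1.37 FPKM in treated and 1.55 FPKM in recovery cells, against 7.17 FPKM in control cells (5.21-fold and 4.63-fold lower). UBE2L6, the enzyme that conjugates ISG15, was at 7.0 FPKM in treated and 3.21 FPKM in recovery cells, against 2.62 FPKM in control cells, so only the treated group stood 2-fold above control. HERC5, the main ISG15 ligase in human cells, was at 11.2 FPKM in treated and 8.98 FPKM in recovery cells, against 11.6 FPKM in control cells. HERC6, its neighbour on chromosome 4, was between 1.71 and 1.98 FPKM in the 3 groups. TRIM25, a ligase that acts on the RNA sensor RIG-I, was at 12.7 FPKM in treated and 9.47 FPKM in recovery cells, against 13.8 FPKM in control cells. HERC5, HERC6 and TRIM25 thus lay within 2-fold of control in both groups.

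Among the receptor, kinase and transcription factor genes with an entry, IFNAR2 and IRF7 passed 2-fold on the log2(FPKM + 1) scale, both in treated cells only. IFNAR1 was at 9.18 FPKM in treated and 7.95 FPKM in recovery cells, against 8.45 FPKM in control cells. IFNAR2, the second receptor subunit, was at 5.06 FPKM in treated and 2.61 FPKM in recovery cells, against 1.70 FPKM in control cells, a ratio of 2.97 in treated cells. TYK2 was at 15.3 FPKM in treated and 26.6 FPKM in recovery cells, against 25.0 FPKM in control cells. The receptor subunits and TYK2 thus held 1 gene past 2-fold, IFNAR2 in treated cells.

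Among the transcription factors, STAT2 was at 10.2 FPKM in treated and 11.7 FPKM in recovery cells, against 10.3 FPKM in control cells. IRF9, which gives the complex its DNA contact, was at 0.285 FPKM in treated and 2.31 FPKM in recovery cells, against 0.752 FPKM in control cells. The smallest whole numbers behind the IRF9 values were 1 fragment in treated, 4 in recovery and 2 in control, so its ratio of 3.07 in recovery has an exact 95% interval of 0.439 to 33.9. If these smallest numbers are the true ones, a difference of IRF9 from control was not detectable at this depth. Larger numbers in the same proportions fit the values equally well and would narrow the interval. IRF7, which amplifies interferon production, was at 20.7 FPKM in treated and 7.69 FPKM in recovery cells, against 9.81 FPKM in control cells, just past 2-fold in treated cells at a log2 difference of 1.01. IRF1, an activator, was at 2.92 FPKM in treated and 6.01 FPKM in recovery cells, against 4.14 FPKM in control cells. IRF2, which competes with IRF1 for the same DNA sites, was between 5.58 and 6.13 FPKM in all groups.

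JAK1, IRF3 and PARP9 had no entry of their own, and each overlaps a neighbouring gene in the RefSeq gene table. The entry of RAVER2, which overlaps JAK1, spans 221410 bases against a gene length of 88158, and the entry of BCL2L12, which overlaps IRF3, spans 14348 bases against 8775. The entry of DTX3L, which overlaps PARP9, spans 47290 bases against 10866. Such entries can hold the fragments of both genes, so no value is given to JAK1, IRF3 or PARP9, and the DTX3L value may include PARP9.

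**Figure D3:**
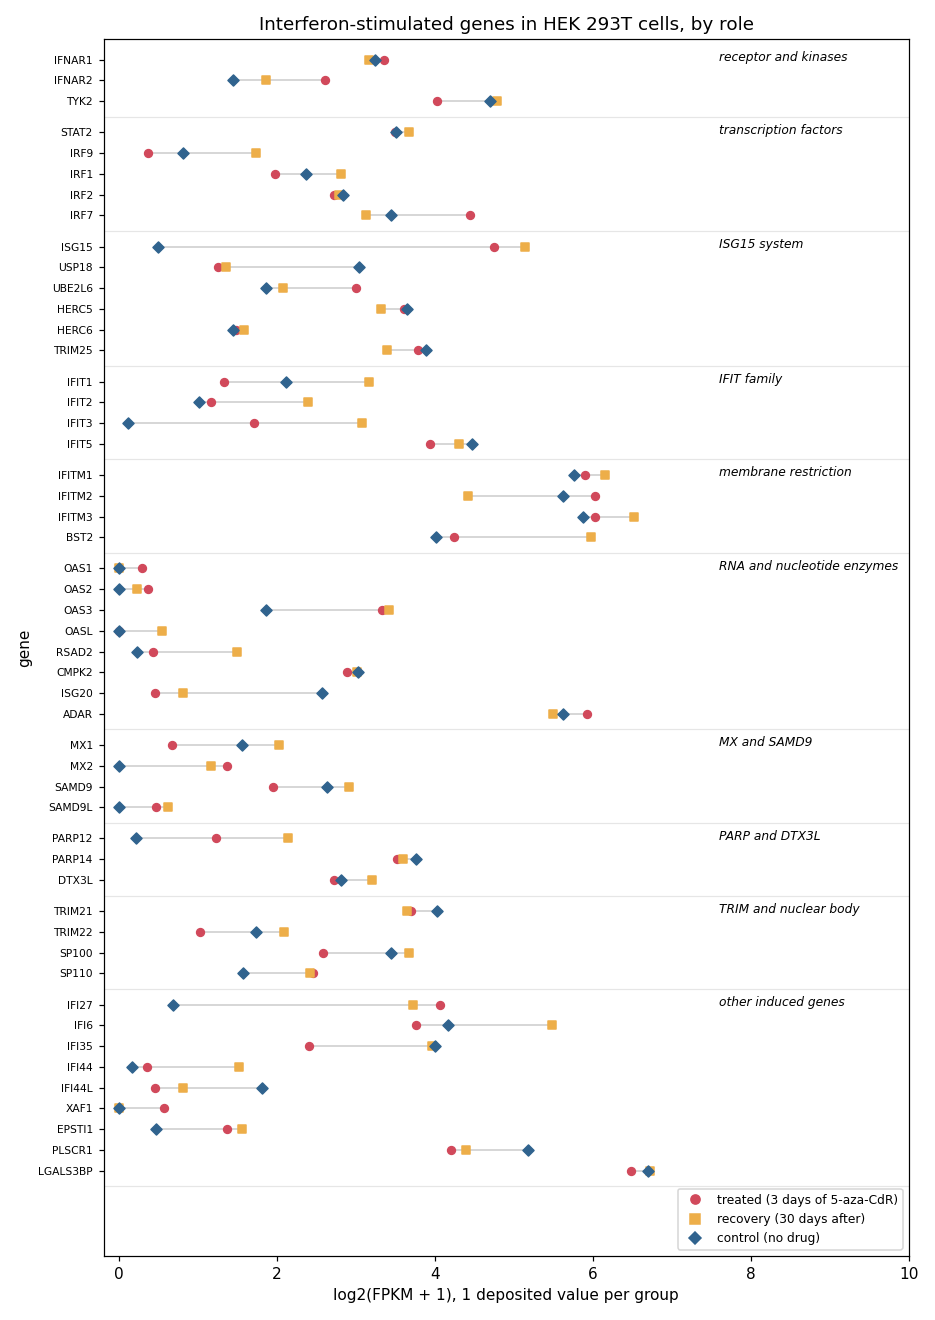
Level of each listed gene with an entry as log2(FPKM + 1) (x axis), with 1 point each for treated, recovery and control and the genes grouped by role. The widest gaps belong to ISG15, IFI27 and IFIT3, where control is below 1 FPKM, while LGALS3BP and the IFITM genes are high in every group.

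The IFIT genes, whose proteins bind viral RNA lacking the host's cap marks, lie in a cluster on chromosome 10 between 91061706 and 91180759 (hg19). IFIT3 was at 2.27 FPKM in treated and 7.45 FPKM in recovery cells, against 0.0791 FPKM in control cells, ratios of 28.8 and 94.2 over a control near 0. IFIT2 was at 1.23 FPKM in treated and 4.22 FPKM in recovery cells, against 1.01 FPKM in control cells (4.17 times control in recovery). IFIT1 was at 1.51 FPKM in treated and 7.95 FPKM in recovery cells, against 3.32 FPKM in control cells, so treated cells were below and recovery cells above control. In these 3 neighbours recovery was the highest group. IFIT5, the fourth member of the cluster, was at 14.3 FPKM in treated and 18.7 FPKM in recovery cells, against 21.2 FPKM in control cells, and recovery was not the highest there. Recovery over treated ratios were 5.27 for IFIT1, 3.42 for IFIT2, 3.27 for IFIT3 and 1.31 for IFIT5.

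The membrane proteins that restrict viruses were among the most abundant genes of the list. BST2, or tetherin, which holds budding virus particles at the cell surface, was at 17.8 FPKM in treated and 61.7 FPKM in recovery cells, against 15.2 FPKM in control cells. The BST2 level in recovery was thus 4.07 times control, with q = 0.371 in the authors' deposited table, while treated cells were 1.17 times control. Its level was above 15 FPKM in every group. IFITM1, IFITM2 and IFITM3, which block virus fusion, sit together on chromosome 11 between 308107 and 320914 (hg19) and are close copies of each other. IFITM1 was at 58.9 FPKM in treated and 69.8 FPKM in recovery cells, against 53.1 FPKM in control cells. IFITM3 was at 64.2 FPKM in treated and 90.5 FPKM in recovery cells, against 57.9 FPKM in control cells. IFITM2 ran the other way in recovery, at 64.1 FPKM in treated and 20.4 FPKM in recovery cells, against 48.3 FPKM in control cells (2.37-fold lower in recovery). How fragments were shared among these copies is not stated, so the split between IFITM2 and IFITM3 is uncertain.

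The enzymes that act on RNA or nucleotides showed no common direction. OAS3, which makes the 2-5A signal that activates RNase L, was at 9.0 FPKM in treated and 9.63 FPKM in recovery cells, against 2.62 FPKM in control cells (3.43 and 3.67 times control), and had the lowest q-values of the list. Its neighbours on chromosome 12 were near or at 0. OAS1 was at 0.221 FPKM in treated cells and listed at 0 in the recovery and control groups, and OAS2 was at 0.291 FPKM in treated and 0.170 FPKM in recovery cells and listed at 0 in control cells. OASL, a relative without the synthetase activity, was at 0.452 FPKM in recovery cells and listed at 0 in the treated and control groups. OAS1, OAS2 and OASL were below the filter, so the 2-5A synthetase family was represented by OAS3 in the counts.

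RSAD2, or viperin, which makes a chain-terminating nucleotide, was at 0.338 FPKM in treated and 1.80 FPKM in recovery cells, against 0.168 FPKM in control cells. Its smallest whole numbers were 8, 21 and 3 fragments in treated, recovery and control, and the ratio of 10.7 in recovery had an exact 95% interval of 3.20 to 56.2. CMPK2, a mitochondrial nucleotide kinase next to RSAD2 on chromosome 2, was at 6.38 FPKM in treated and 7.09 FPKM in recovery cells, against 7.10 FPKM in control cells. These neighbours therefore differed in recovery: RSAD2 was above control and CMPK2 was level with it. ISG20, an exonuclease, was lower in both groups, at 0.371 FPKM in treated and 0.752 FPKM in recovery cells, against 4.90 FPKM in control cells (13.2-fold and 6.52-fold lower). With the search for whole fragments widened to 10 in control, a step chosen after seeing the data, the smallest numbers for ISG20 were 1 fragment in treated, 1 in recovery and 10 in control. The ISG20 ratio to control was 0.0757 in treated cells, with an exact 95% interval of 0.00174 to 0.532, and 0.153 in recovery, with an interval of 0.00353 to 1.08, so the gap between treated and recovery cells rests on single fragments if these numbers are the true ones. ADAR, which edits adenosine in double-stranded RNA, was between 44.1 and 59.7 FPKM in all groups.

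MX1 and MX2, dynamin-like GTPases that trap incoming viruses, were low. MX2 was at 1.57 FPKM in treated and 1.23 FPKM in recovery cells and listed at 0 in control cells. MX1, beside it on chromosome 21, was at 0.590 FPKM in treated and 3.08 FPKM in recovery cells, against 1.93 FPKM in control cells. SAMD9, a restriction factor of poxviruses, was at 2.86 FPKM in treated and 6.53 FPKM in recovery cells, against 5.20 FPKM in control cells. Its paralogue SAMD9L was at 0.384 FPKM in treated and 0.532 FPKM in recovery cells and listed at 0 in control cells.

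PARP12, an ADP-ribosyltransferase that restricts RNA viruses, was at 1.33 FPKM in treated and 3.40 FPKM in recovery cells, against 0.155 FPKM in control cells. The smallest whole numbers were 34, 43 and 3 fragments in treated, recovery and control. The ratios of 8.58 in treated and 22.0 in recovery had exact 95% intervals of 2.70 to 43.6 and 7.03 to 111, for counting error only. PARP14 was between 10.4 and 12.5 FPKM in the 3 groups, and the DTX3L entry between 5.59 and 8.16 FPKM. Of the TRIM and nuclear body genes, TRIM21, TRIM22, SP100 and SP110, 0 of 4 passed 2-fold on the log2(FPKM + 1) scale in either comparison. By plain ratio SP110 was 2.27 times control in treated cells and 2.20 times in recovery, and TRIM22 was 2.27-fold lower in treated cells. On the log2(FPKM + 1) scale SP110 came nearest in recovery, at 4.47 FPKM in treated and 4.33 FPKM in recovery cells, against 1.97 FPKM in control cells. SP100 was at 4.99 FPKM in treated and 11.7 FPKM in recovery cells, against 9.90 FPKM in control cells.

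The remaining induced genes held some of the largest ratios. IFI27, a mitochondrial protein that is strongly induced by interferon, was at 15.6 FPKM in treated and 12.2 FPKM in recovery cells, against 0.607 FPKM in control cells (25.7 and 20.1 times control, q = 0.725 in both). IFI6, an antiviral membrane protein, was at 12.6 FPKM in treated and 43.6 FPKM in recovery cells, against 16.9 FPKM in control cells, so recovery alone stood above control (2.58 times). IFI44 and IFI44L, neighbours on chromosome 1, were both higher in recovery than in treated cells, but control was the lowest group for IFI44 and the highest for IFI44L. IFI44 was at 0.276 FPKM in treated and 1.86 FPKM in recovery cells, against 0.121 FPKM in control cells, from smallest numbers of 3, 10 and 1 fragments; its ratio of 15.3 in recovery had an exact 95% interval of 2.18 to 665. IFI44L was at 0.370 FPKM in treated and 0.750 FPKM in recovery cells, against 2.51 FPKM in control cells. The IFI44L ratio of recovery to treated was 2.03, the same as for ISG20, whose smallest numbers were 1 fragment in each group. No whole numbers were found for IFI44L over the 3 groups. Its gap between treated and recovery cells may therefore rest on equal numbers of fragments.

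IFI35 was at 4.27 FPKM in treated and 14.6 FPKM in recovery cells, against 15.0 FPKM in control cells, so its treated value was 3.51-fold lower and its recovery value was level with control. EPSTI1 was at 1.58 FPKM in treated and 1.93 FPKM in recovery cells, against 0.378 FPKM in control cells (4.16 and 5.11 times control). In the widened search its smallest numbers were 33, 20 and 6 fragments in treated, recovery and control, and the exact 95% intervals of its ratios were 1.72 to 12.2 and 1.98 to 15.5. PLSCR1, a phospholipid scramblase, was at 17.4 FPKM in treated and 19.9 FPKM in recovery cells, against 35.1 FPKM in control cells. In treated cells it was 2.02-fold lower by plain ratio and just short of 2-fold at a log2(FPKM + 1) difference of -0.98. LGALS3BP, a secreted glycoprotein and the most abundant gene of the list, was between 88.2 and 104 FPKM. XAF1 was at 0.486 FPKM in treated cells and listed at 0 in the recovery and control groups.

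Genes with the response-element letters in a promoter window and genes without them were then set side by side. Of the 45 genes, 24 had a window with the letters and 13 had windows without them. IFNAR2, IRF2, IRF7, USP18, IFIT2, IFITM2, MX2 and TRIM22 had no window. Of these, IFIT2 and MX2 were at least 2-fold higher than control in recovery. The receptor, kinase and transcription factor genes with a window among the 45 were IFNAR1, TYK2, STAT2, IRF1 and IRF9. All of them were without the letters, so the split by letters is also partly a split by role. On the log2(FPKM + 1) scale, 11 of the 24 genes with the letters were at least 2-fold higher than control in recovery and 2 were lower. On that scale 0 of the 13 without the letters were higher and 0 lower, and 11.6% of all genes were higher. By plain ratio IRF9 (3.07 times control) and SP110 (2.20 times), both without the letters, were also past 2-fold in recovery. The median log2 difference in recovery was 0.56 with the letters and 0.14 without. In treated cells 5 of the 24 and 1 of the 13 were higher, against 12.7% of all genes, 2 and 1 were lower, and the medians were -0.06 and -0.10. The CpG count of a gene's richest window had a median of 12 with the letters and 24 without, so genes with the letters also had fewer CpG in this list. Genes at least 2-fold higher in recovery ranged from IFI44, with 0 CpG in its windows, to RSAD2, with 45 in its richest. The split was made without a test, and which start sites these cells use is not known from the table.

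**Figure D4:**
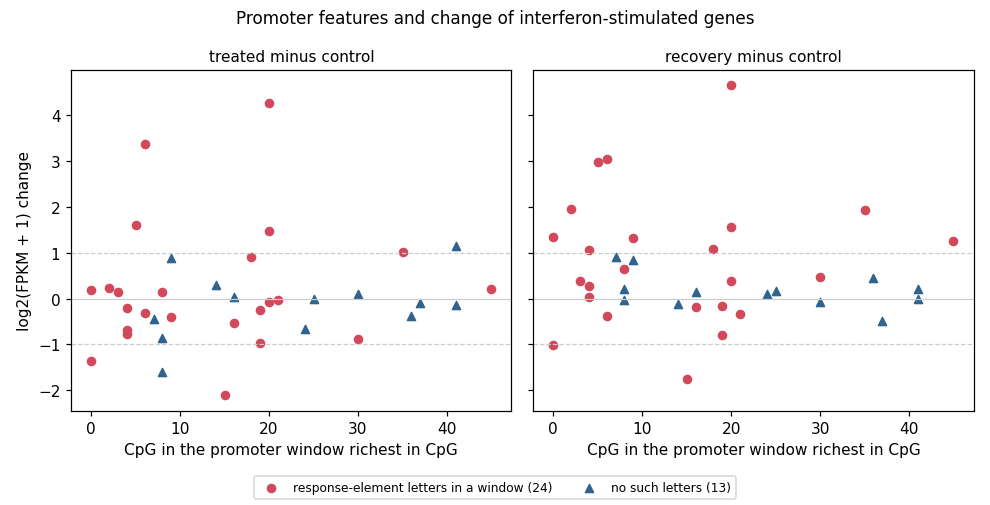
Difference in log2(FPKM + 1) from control (y axis; treated on the left, recovery on the right) against the number of CpG in the gene's richest promoter window (x axis), for 24 genes with the response-element letters and 13 without. In recovery 11 of the 24 genes with the letters and 0 of the 13 without lie at or above the upper dashed line. This line marks 2-fold on the log2(FPKM + 1) scale.

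A further column of the authors' deposited table marks some genes as affected under a heading on DNA methylation, and how this was decided is not stated there. The mark stood on 8 of the 50 listed genes (16.0%), IFNAR1, IRF9, IFIT2, OAS3, SAMD9, SAMD9L, SP110 and IFI44, against 14.1% of all entries. Of the 13 genes at least 2-fold higher than control in recovery, 3 (23.1%) carried it, IFIT2, OAS3 and IFI44.

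Other genes of the pathway were read from a list of 90, of which 82 had an entry and 48 passed the filter. In treated cells 3 of the 48 (6.25%) were at least 2-fold higher and 7 (14.6%) lower, against 12.7% and 7.50% of all genes. In recovery 3 (6.25%) were higher and 3 (6.25%) lower, against 11.6% and 6.31% of all genes. Of 40 of these genes with q under 1 in each comparison of the authors' deposited table, 0 were called in treated cells. In recovery 1 of the 40 was called higher, IFI16, against 0.895% of all entries with q under 1. Of 20 interferon genes with an entry, 19 were listed at 0 in all 3 groups, IFNB1 among them. The exception was the IFNK entry, at 2.54 FPKM in treated cells and listed at 0 in the recovery and control groups. This entry runs from 27325207 to 27529850 on chromosome 9 (hg19), far longer than the other interferon entries. It can hold fragments of a neighbouring gene, so its value is not assigned to IFNK. The entry is among the 3 counted as higher in treated cells. Of 10 other receptor and signalling genes, 9 passed the filter. On the log2(FPKM + 1) scale 1 was past 2-fold, IL10RB, a receptor subunit for interferon lambda. IL10RB was at 13.7 FPKM in treated and 15.0 FPKM in recovery cells, against 4.21 FPKM in control cells (q = 0.828 and 0.785 in the authors' deposited table).

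Of 9 genes that brake the pathway, 8 passed the filter and 1 was past 2-fold on the log2(FPKM + 1) scale, the phosphatase PTPN6. PTPN6 was at 2.36 FPKM in treated and 3.59 FPKM in recovery cells, against 6.90 FPKM in control cells. Among 43 further induced genes with an entry, 30 passed the filter. IFI16, a DNA sensor, was at 0.111 FPKM in treated and 4.48 FPKM in recovery cells and listed at 0 in control cells. Its q-value in the authors' deposited table was 0.0147 for recovery against control. Recovery was 1 library, so this q-value cannot measure spread between recovery cultures, and a listed 0 can be a failed estimate. Among these further induced genes the largest difference was that of APOBEC3G, a cytidine deaminase, in recovery. APOBEC3G was at 0.343 FPKM in treated and 5.91 FPKM in recovery cells, against 0.227 FPKM in control cells. DDX60, a helicase, was the lowest against control, at 0.883 FPKM in treated and 1.35 FPKM in recovery cells, against 6.68 FPKM in control cells.

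Markers of leukocytes, which respond strongly to interferon, were read in the same table. Of 7 markers, 1 was listed at 0 in treated cells (CD3E), 4 in recovery (PTPRC, CD3E, CD14 and LYZ) and 6 in control. Their summed level was 7.26 FPKM in treated and 6.90 FPKM in recovery cells, against 0.168 FPKM in control cells. PTPRC, which marks all leukocytes, was at 0.413 FPKM in treated cells and listed at 0 in the recovery and control groups. The sum came mainly from CD68 and CD74. CD68 was at 2.71 FPKM in treated and 3.43 FPKM in recovery cells and listed at 0 in control cells. CD74 was at 3.81 FPKM in treated and 3.34 FPKM in recovery cells, against 0.168 FPKM in control cells. The part of the 7 markers in the levels of the listed genes was not tested.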

How the data were processed

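RNA from 5 libraries of HEK 293T cells was analysed: 2 treated, 1 recovery and 2 control, grouped by the sample labels. Per the labels' protocols, RNA was depleted of ribosomal RNA and made into directional libraries. Cufflinks and Cuffdiff are named in the submitters' processing notes, with the builds hg19 and mm9; these human coordinates were taken as hg19 and are printed counting from 1. No aligner, annotation release, version or setting is named in these sources. Per the labels, cells were grown in triplicate, but nothing says which culture each library came from.

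The authors deposited 1 FPKM value per gene and group, and, per the file headers, a q-value and a yes or no call for treated and for recovery against control; calls were yes exactly at q under 0.05. Of 20221 entries 1 was left out because a broken exponent had shifted its cells. Symbols came from NCBI's RefSeq gene table (GRCh38.p14, names, lengths and overlaps only), which matched 19665 entries. The number of value columns without a group was 0. The lncRNA table was not used here.

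Differences are of log2(FPKM + 1); this pseudocount of 1 understates changes of low genes. Ratios are of plain FPKM, and none is given against a value of 0. A listed 0 can be a failed estimate. With 1 value per group no test could be added. Fragments per gene were searched as the smallest whole numbers, up to 5 in control (10 in a search added after seeing the data), within 0.02 fragments; at up to 5, 5 of 44 listed genes above 0 in all groups and 5.74% of all such genes gave them, and a multiple would give the same values. Ratio intervals are exact (Clopper-Pearson on the counts of 2 groups) and cover counting error only. Python 3.11.15, pandas 2.3.3, numpy 2.4.6 and scipy 1.17.1 were used, and the fragment, size and motif searches were tested on simulated data.

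The genes, lists and rules were chosen with earlier results of these data known. Values in all groups are printed for listed genes that reach 1 FPKM and differ 2-fold on the log2(FPKM + 1) scale, and for signalling genes; other listed genes are given by range, or by values chosen after they were seen; a pathway gene outside the list is named when called or when most changed in its subgroup, and IFNB1 was named apart from that rule. Some genes of the pathway and marker lists are not reported here.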

Additional observations from a re-analysis of the deposited data

How the results depend on the processing

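Of 51 recomputed values, 38 stayed within 1.5 times their count or 0.1 of their median, 12 moved and 1 changed sign. With no filter on low values the treated median was 0.021 in place of -0.04, a change of sign close to 0. Quantile scaling gave a treated median of -0.17 and a treated split of 7 higher and 7 lower of 45 listed genes, in place of 9 and 4, with 10.3% and 9.38% of all genes so. A pseudocount of 0.1 FPKM gave 11 higher and 9 lower in treated cells (17.6% and 10.7% of all genes). A pseudocount of 5 FPKM gave 2 higher and 1 lower in treated cells (3.36% and 2.32% of all genes), 5 higher and 1 lower in recovery (2.86% and 1.31%), and a recovery median of 0.17. At 3-fold in place of 2-fold, 3 genes were higher and 3 lower in treated cells (5.67% and 2.05% of all genes), and 5 were higher and 2 lower in recovery (4.78% and 1.99%). With a mean of 2 FPKM or more, 8 of 36 listed genes were higher in recovery, against 8.96% of all genes. The recovery median stayed above 0 in all of these settings, and the causes were not tested. The authors' calls stayed at 0 at q under 0.10. No paired analysis was possible because 1 combined value per group was deposited, and leaving out a library was not run for the same reason. Identity between proteins of gene families was not run. Widening the fragment search from 5 to 10 in control, chosen after seeing the data, raised the listed genes with whole numbers from 5 to 7 by adding ISG20 and EPSTI1. By these smallest numbers, depth limits the ratios of ISG15, IFI44, PARP12, RSAD2 and IRF9, with 1 to 3 control fragments, and of ISG20, with 1 fragment in each of treated and recovery.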
